A study of Mus musculus with 16 samples.

Results

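Ang, Elf5, Krt13, Pld1, Ppp1r3g, Pth1r, Pxt1, Ric3, Spock1 and Zfp518b were examined as a set of 10 genes, of 18193 named genes on the array, whose signal lay near background in B cells of B6 mice and higher in B cells of Sle2c1 mice, in peritoneal B1a cells and in splenic B cells alike. They were chosen by those measured levels, so that the strain difference itself is given below as a description, with no test. The 10 genes were represented by 21 of the 45037 probe sets, and all 21 were followed, because several probe sets of a gene read the same transcript at different places. For each gene, the probe set with the highest mean over the 16 arrays is called the main probe set, which gave 10 main and 11 other probe sets. Ppp1r3g, Pth1r and Pxt1 had 1 probe set each, and the other 7 genes had from 1 to 2 further ones.

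The samples formed 4 groups of 4 Affymetrix mouse arrays, all from mice aged 5 months. B6_B1a held peritoneal cavity B1a cells of C57BL/6 mice, B6_Bs held splenic B cells of the same strain, and Sle2c1_B1a and Sle2c1_Bs held the same cell types of B6.Sle2c1 mice, a congenic strain with a segment of the lupus-prone NZM2410 genome on the B6 background. Every gene within that segment can differ between the strains, not Cdkn2c alone. The peritoneal cells were cultured for 2 h to remove adherent macrophages, depleted of cells bearing Thy1.2 and CD3ε and selected for CD5, which per the labels gave a population of 80% B220int CD5+ cells, with the rest not described. The splenic cells were CD43-negative and more than 90% B220hi. The series design speaks of biological replicates, and no label says which mice or pools they came from, so that the p-values below measure the spread between these samples.

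The labels were checked against marker genes. Ms4a1, which encodes CD20, had group means of 3.75 to 3.98 units, and Ebf1, a transcription factor that sets B cell identity, had 3.56 to 3.82. Cd79b, a chain of the B cell receptor, was likewise high, between 3.22 and 3.74. Pax5 was near background in each group (0.63 to 0.75), and Cd5, on which the B1a cells were selected, was low in them as well, at 1.08 ± 0.30 in B6_B1a and 0.75 ± 0.34 in Sle2c1_B1a (SD, n = 4). On every Bs array Cd5 was at 0.495, the lowest value used here. The probe set of Cdkn2c, the cell cycle inhibitor named in the series title, was at 1.21 ± 0.13 in B6_B1a and 0.61 ± 0.18 in Sle2c1_B1a, and at 1.42 ± 0.17 and 0.52 ± 0.05 in the Bs groups (SD, n = 4).

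The deposited values are scores whose log base, scale and centring are not given in the sources used here, so differences are stated in score units and never as folds. On each array 22.8% to 35.6% of probe sets shared the lowest value of that array, which carries no level. Values under 0.495 (the 40th percentile of the probe sets, taken as its median over the 16 arrays) were therefore set to 0.495, called the floor. Array medians ran from 0.68 to 1.12 units, and precision is limited by how many arrays there are. In earlier work on these data Sle2c1_B1a replicate 4, B6_Bs replicates 1 and 3 and Sle2c1_Bs replicate 3 stood apart from the others of their groups, and results that rest on them are given with and without them.

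The genes have little in common in what they are known to do. Ang encodes angiogenin, a secreted ribonuclease that promotes vessel growth, and Elf5 an ETS transcription factor of the mammary alveolus and of trophoblast stem cells. Krt13 is a keratin of the moist stratified epithelia of mouth and oesophagus, Pxt1 a peroxisomal protein of the testis, Spock1 a proteoglycan of the extracellular matrix that is abundant in brain, and Pth1r the receptor for parathyroid hormone in bone and kidney. Ric3 is a chaperone that helps nicotinic acetylcholine receptors to assemble, Ppp1r3g directs protein phosphatase 1 to glycogen, Pld1 is a phospholipase D that makes phosphatidic acid in many cell types, and Zfp518b is a zinc finger protein. Most of them are known chiefly from tissues other than B cells.

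The promoters of the genes were compared as a description only. The main probe sets shared the strain pattern by which the genes were chosen, so no shared control is read from it. RefSeq (GRCm38.p6) gave 14 promoters, each 300 bases long, for 9 of the genes. Ric3 had none. The 3 shown are that of Ang, whose strain difference in B1a cells was the widest of the 10, and those with the fewest and the most CpG pairs, which stand in capitals.
Ang, chr14:51090827-51091126, plus strand: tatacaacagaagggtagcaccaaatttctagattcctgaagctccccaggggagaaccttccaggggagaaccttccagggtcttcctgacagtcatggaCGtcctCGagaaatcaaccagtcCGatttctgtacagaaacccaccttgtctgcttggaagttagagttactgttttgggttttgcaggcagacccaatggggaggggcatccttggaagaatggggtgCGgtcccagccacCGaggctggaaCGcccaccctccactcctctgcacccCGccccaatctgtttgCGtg
Krt13, chr11:100121517-100121816, minus strand: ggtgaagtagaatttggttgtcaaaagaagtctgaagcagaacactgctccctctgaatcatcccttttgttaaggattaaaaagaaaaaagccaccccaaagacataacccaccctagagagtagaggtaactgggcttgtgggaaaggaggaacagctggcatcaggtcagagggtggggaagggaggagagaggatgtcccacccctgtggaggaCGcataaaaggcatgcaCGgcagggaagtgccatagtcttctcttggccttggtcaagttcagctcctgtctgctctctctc
Pld1, chr3:27938430-27938729, plus strand: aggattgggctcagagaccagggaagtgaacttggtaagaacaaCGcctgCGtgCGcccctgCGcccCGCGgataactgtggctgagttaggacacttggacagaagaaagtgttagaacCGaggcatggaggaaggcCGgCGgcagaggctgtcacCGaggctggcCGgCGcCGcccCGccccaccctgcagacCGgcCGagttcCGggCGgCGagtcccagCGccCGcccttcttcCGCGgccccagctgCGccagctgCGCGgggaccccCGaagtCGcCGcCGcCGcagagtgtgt
The Ang promoter held 8 CpG pairs, that of Krt13 held 2 and that of Pld1 held 31. Over the 14 promoters the median was 9 pairs, against a median of 7 and quartiles of 3 and 20 over 32851 promoters of the same length. Of the motifs searched on both strands, CCAAT was present in 6 of the 14, against 37.41% of all promoters. The letters TATAAA (13.62% of all promoters), TTTCCCGC (1.068%), TTTGGCGC (0.5144%) and CCGGAAGT (3.887%) were in 0 of the 14. The promoters of the set thus ranged widely in CpG content and had none of these motifs in common, which says only what letters these windows hold.

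The main probe sets were low on all 8 B6 arrays and higher on all 8 Sle2c1 arrays. The values of each gene follow, ordered by role, starting with the secreted and matrix proteins.

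Ang was read by main probe set 1438937_x_at, at 0.99 on 1 B6_B1a array and at the floor on the other 3, against 2.19, 2.13, 2.20 and 2.32 in Sle2c1_B1a. In B6_Bs it was at 0.90 and 1.06 on 2 arrays and at the floor on 2, against 1.70, 1.48, 1.76 and 2.13 in Sle2c1_Bs. The strains did not overlap in either cell type, and the means differed by 1.59 units in B1a cells and 1.03 in Bs cells. Spock1 (1419673_at) was at 0.65 and 0.56 on 2 B6_B1a arrays and at 0.53 on 1 B6_Bs array, with the remaining B6 arrays at the floor. Its Sle2c1_B1a arrays had 2.01, 2.00, 1.96 and 1.38, and its Sle2c1_Bs arrays 1.37, 1.52, 1.26 and 1.50. The array at 1.38 stood far below the others of its group and still above every B6 array, and the differences were 1.29 and 0.91 units.

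Pth1r, the receptor among the genes, was at 1.14 and 0.72 on 2 B6_B1a arrays and at 0.68 on 1 B6_Bs array (1417092_at), with the others at the floor. In Sle2c1_B1a it was at 2.13, 1.74, 1.90 and 1.95, and in Sle2c1_Bs at 1.33, 1.82, 1.18 and 1.74. Sle2c1 lay above B6 without overlap, by 1.22 and 0.98 units. Ric3, the receptor chaperone, was at 0.86 and 0.76 in B6_B1a and at 0.77 and 0.54 in B6_Bs (1447553_x_at), each with 2 further arrays at the floor. Its Sle2c1_B1a arrays were at 2.08, 2.23, 1.78 and 2.12 and its Sle2c1_Bs arrays at 1.60, 1.49, 1.35 and 1.93, again without overlap, with differences of 1.40 and 1.02.

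Of the enzymes and enzyme regulators, Pld1 (1437112_at) was at 0.56 on 1 B6_B1a array, at 0.74 and 0.68 on 2 B6_Bs arrays and otherwise at the floor in B6. It was at 1.80, 2.00, 1.84 and 2.03 in Sle2c1_B1a and at 1.26, 1.18, 1.23 and 1.62 in Sle2c1_Bs. Its 2 Sle2c1 groups were also separate from each other, and it differed from B6 by 1.41 units in B1a cells and by 0.72 in Bs cells. Ppp1r3g (1428923_at), the glycogen-targeting subunit, was at 0.62 and 0.67 on 2 B6_B1a arrays and at 0.64, 0.74 and 0.94 on 3 B6_Bs arrays, with the other 3 at the floor. It reached 1.90, 2.07, 1.80 and 1.87 in Sle2c1_B1a and 1.51, 1.73, 1.62 and 1.90 in Sle2c1_Bs, groups that overlapped each other but not B6. Its differences were 1.34 and 0.99. Apart from these classes, the peroxisomal protein Pxt1 (1430015_at) was at 0.93 on 1 B6_B1a array, at 0.91 on 1 B6_Bs array and at the floor on the other 6. It was at 2.02, 2.11, 2.14 and 2.04 in Sle2c1_B1a and at 1.51, 1.47, 1.30 and 1.96 in Sle2c1_Bs, above every B6 array, by means of 1.47 and 0.96.

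The keratin Krt13 (1441863_x_at) was at 0.81 on 1 B6_B1a array and at 0.51, 0.94 and 0.76 on 3 B6_Bs arrays, and at the floor on the others. In Sle2c1_B1a its values of 2.08, 2.00, 2.02 and 2.09 lay close together, and those of Sle2c1_Bs were 1.29, 1.21, 1.50 and 1.54. All 8 were above B6, by 1.47 units in B1a cells and 0.71 in Bs cells. Of the nuclear proteins, Elf5 (1419555_at) was at 0.71, 0.92 and 1.11 on 3 B6_B1a arrays and at 0.51 and 1.18 on 2 B6_Bs arrays, with the other 3 at the floor. It was at 2.11, 1.97, 2.14 and 2.19 in Sle2c1_B1a and at 1.74, 1.68, 1.70 and 2.08 in Sle2c1_Bs, so that its groups also stayed apart, by 1.29 and 1.13. Zfp518b (1441134_at) was at 1.00 on 1 B6_B1a array and at the floor on the other 7 B6 arrays. It was at 1.92, 1.88, 1.87 and 1.87 in Sle2c1_B1a and at 1.51, 1.47, 1.04 and 1.64 in Sle2c1_Bs. The lowest of these was just above the highest B6 value, and the difference was 1.26 units in B1a cells and at least 0.92 in Bs cells, where all B6 arrays were at the floor.

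**Figure D1:**
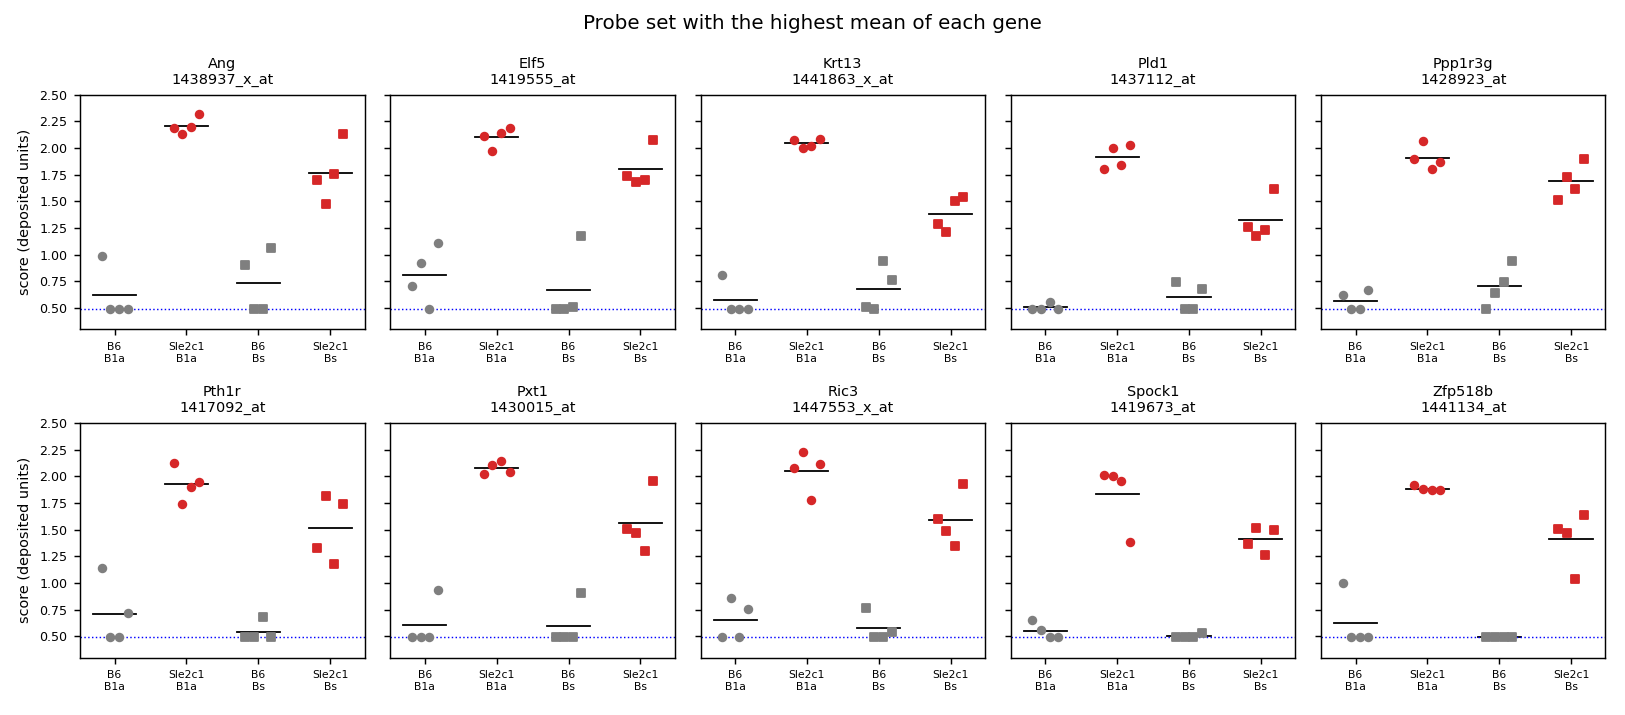
Score on each array (vertical axis, deposited units) for the main probe set of each of the 10 genes, by group on the horizontal axis. Grey marks B6 and red Sle2c1, circles B1a and squares Bs cells, black lines are group means of 4 arrays and the dotted line is the floor at 0.495. The red points lie above the grey points of the same cell type in every panel.

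The main probe sets were thus above B6 without overlap for 10 of 10 genes in each cell type. This pattern chose the genes, so nothing is read from the count. Without the 4 arrays that stood apart, all 10 were still separate in both cell types. Over all 45037 probe sets the same separation occurred for 3.19% in B1a cells, for 0.968% in Bs cells and for 0.233% in both. The difference ran from 1.22 to 1.59 units in B1a cells (median 1.37) and from 0.71 to 1.13 in Bs cells (median 0.969), beside medians of 0.01 and 0.00 over all named genes. Of the 80 B6 values of the main probe sets, 24 of 40 in B1a and 23 of 40 in Bs cells were at the floor, against 0 of 40 in each Sle2c1 group. In such bulk samples fewer cells with a transcript and less RNA per cell cannot be told apart.

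The mean over the 10 main probe sets was 0.50 to 0.74 units on the B6_B1a arrays and 0.51 to 0.76 on the B6_Bs arrays. It was 1.97 to 2.02 on the Sle2c1_B1a arrays, a span narrower than that of any other group, and 1.39 to 1.80 on the Sle2c1_Bs arrays. Sle2c1_Bs replicate 4 had the highest mean of its group and replicate 3 the lowest. Across the 16 arrays, the 45 pairs of main probe sets had Pearson correlations of 0.90 to 0.976 (median 0.941). This describes arrays that share the strain groups by which the genes were chosen.

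With all arrays, the other probe sets of the same genes did not show the strain separation. In B1a cells 0 of 11 lay above B6 without overlap and 0 of 11 below, and the same was true in Bs cells. Over all probe sets 3.33% lay below in B1a and 0.859% in Bs cells. Their mean was higher in Sle2c1 for 7 of 11, lower for 3 and equal for 1 in B1a cells, with differences of -0.23 to 0.51 units (median 0.04). In Bs cells 6 were higher, 1 was lower and 4 were equal, from -0.39 to 0.26 units (median 0.06). Leaving out arrays changed this for 3 of the 11. Sle2c1 lay above B6 without overlap for Pld1 1425739_at in B1a cells without Sle2c1_B1a replicate 1, and for Ric3 1434912_at in Bs cells without B6_Bs replicate 3 or without the 4 arrays that stood apart. For Zfp518b 1452340_at it lay below B6 in those same cases, in B1a cells without Sle2c1_B1a replicate 1 and in Bs cells without B6_Bs replicate 3 or without the 4 arrays. Many of the values were at the floor, 31 of 44 in B6_B1a, 28 of 44 in Sle2c1_B1a, 34 of 44 in B6_Bs and 30 of 44 in Sle2c1_Bs.

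For Ang, probe set 1438936_s_at went the other way in B1a cells, with 0.83, 1.26 and 0.93 on 3 B6_B1a arrays and 1.12 on 1 Sle2c1_B1a array, the others of both groups at the floor. The second, 1450717_at, had 0.59, 1.08, 1.40 and 0.96 in B6_Bs and 1.41, 1.15, 1.73 and a floor value in Sle2c1_Bs, and these groups overlapped. Neither followed the main probe set across arrays, with Pearson correlations of -0.164 and -0.069 over 16 arrays. Rnase4, a ribonuclease gene that shares its promoter region with Ang in the mouse, was at 1.17 ± 0.46 in B6_B1a and 0.78 ± 0.36 in Sle2c1_B1a, and at 0.57 ± 0.16 and 0.58 ± 0.17 in the Bs groups (SD, n = 4), with overlap in both cell types. The main Ang probe set carries the x_at suffix, given by the manufacturer to sets with probes that can bind other sequences, and Ang has close paralogs.

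For Pld1, 1425739_at had the largest strain difference among the other probe sets in B1a cells. It was at 0.77, 1.55 and 1.39 on 3 Sle2c1_B1a arrays and at the floor on the fourth, against 0.68 on 1 B6_B1a array and the floor on 3. The groups overlapped, and all 8 Bs arrays were at the floor. Pld1 1437113_s_at had means of 0.52 ± 0.06 and 0.54 ± 0.09 in B6_B1a and Sle2c1_B1a and of 0.67 ± 0.34 and 0.73 ± 0.31 in B6_Bs and Sle2c1_Bs (SD, n = 4), differences within the spread.

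Elf5 1419556_at was at the floor on all 8 B6 arrays and above it on 2 of 4 Sle2c1 arrays in each cell type, at 1.04 and 1.42 in B1a cells and at 0.91 and 1.04 in Bs cells. Ric3 1434912_at was at the floor on the 4 B6_B1a arrays and on 2 of 4 Sle2c1_B1a arrays, which otherwise had 1.29 and 0.89. In Bs cells its B6 values of 0.72 and 1.34 with 2 at the floor overlapped 0.83, 0.94, 1.20 and 1.11 in Sle2c1. The means of these 2 probe sets lay on the same side as those of their main probe set, and the groups overlapped. Ric3 1445553_at had 1.11 on 1 B6_B1a array with the other 3 at the floor, and a mean of 0.69 ± 0.23 in Sle2c1_B1a.

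The second Zfp518b probe set, 1452340_at, had the opposite direction. It was at 0.85, 0.84, 0.59 and 0.88 in B6_B1a and at 0.96 and 0.53 with 2 arrays at the floor in Sle2c1_B1a. In Bs cells it was at 1.32, 0.91 and 1.04 with 1 array at the floor in B6 and at 0.72 with 3 arrays at the floor in Sle2c1. Its correlation with the main probe set was -0.483 over the 16 arrays. Krt13 1422454_at was at the floor on all 16 arrays, and Krt13 1437344_x_at was above it on 1 array, a B6_B1a array at 0.83. Spock1 1419672_at had 0.66 on 1 B6_B1a array and 1.10 on 1 Sle2c1_B1a array, and every Bs array was at the floor. These 3 probe sets did not pass the filter on low values.

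**Figure D2:**
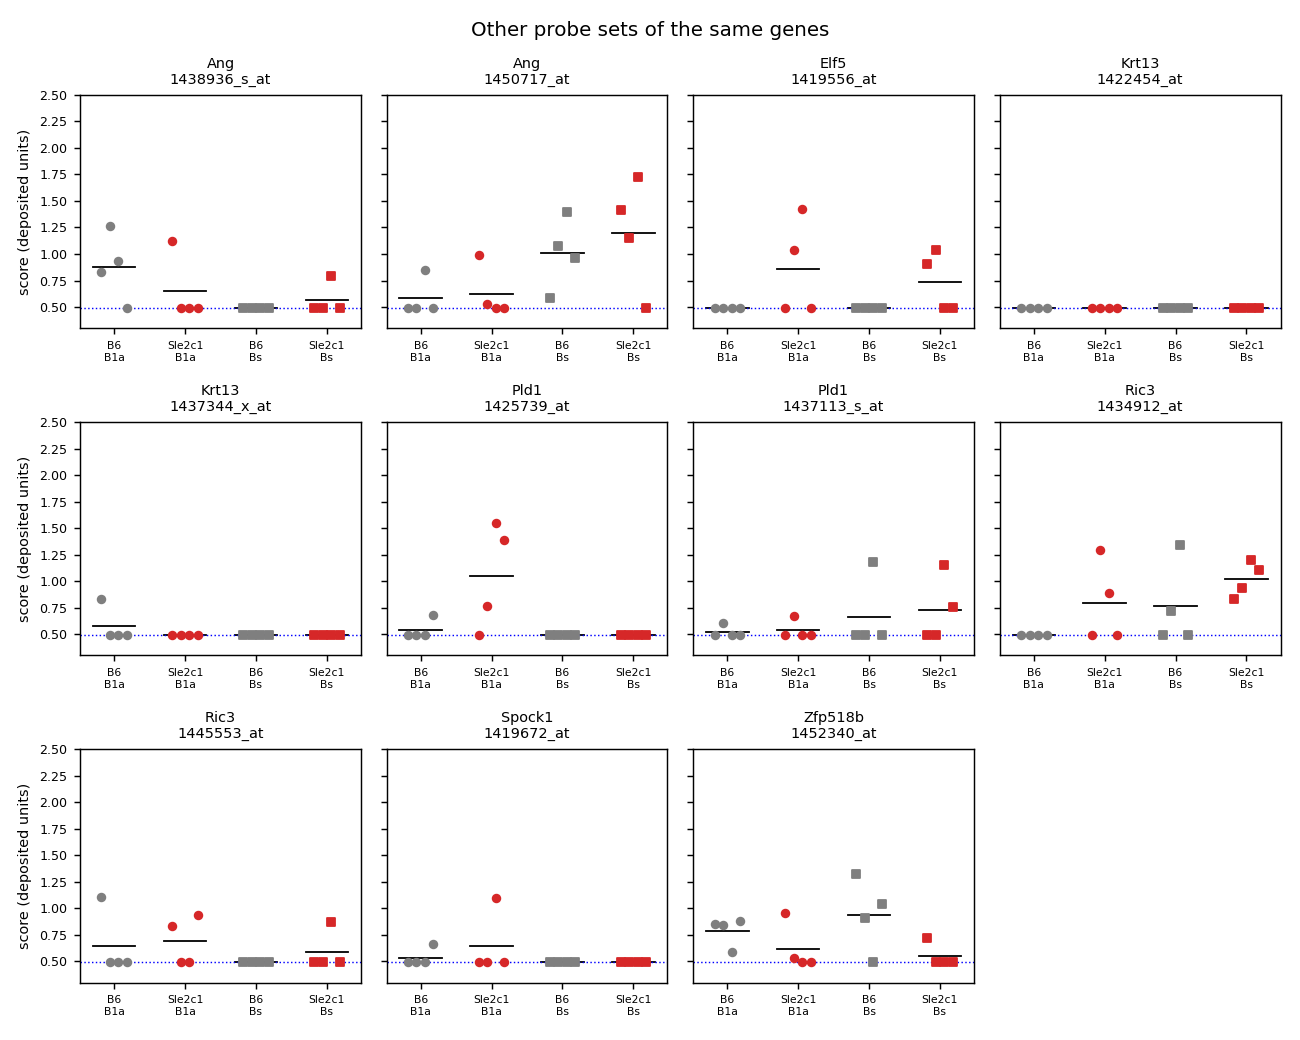
Score on each array (vertical axis, deposited units) for the 11 other probe sets of 7 of the genes, by group, with colours, symbols, means and floor drawn in the manner of the plot of the main probe sets. The red and grey points overlap within each cell type in all 11 panels, and most points lie on the floor.

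Where a gene had several probe sets, they thus did not all show the strain separation. Many values of the other probe sets were at the floor, so their lack of separation does not show that they read something else. With all arrays, the strains were separate for 7 genes with 1 probe set and not with the other 1 or 2, and for Ppp1r3g, Pth1r and Pxt1 no further probe set was there to compare. The 10 other probe sets whose values varied had correlations of -0.483 to 0.59 with the main probe set of their gene (median 0.052, 16 arrays). A main probe set is by its choice the one with the higher mean, and a set raised on 8 of 16 arrays is more likely to be that one.

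**Figure D3:**
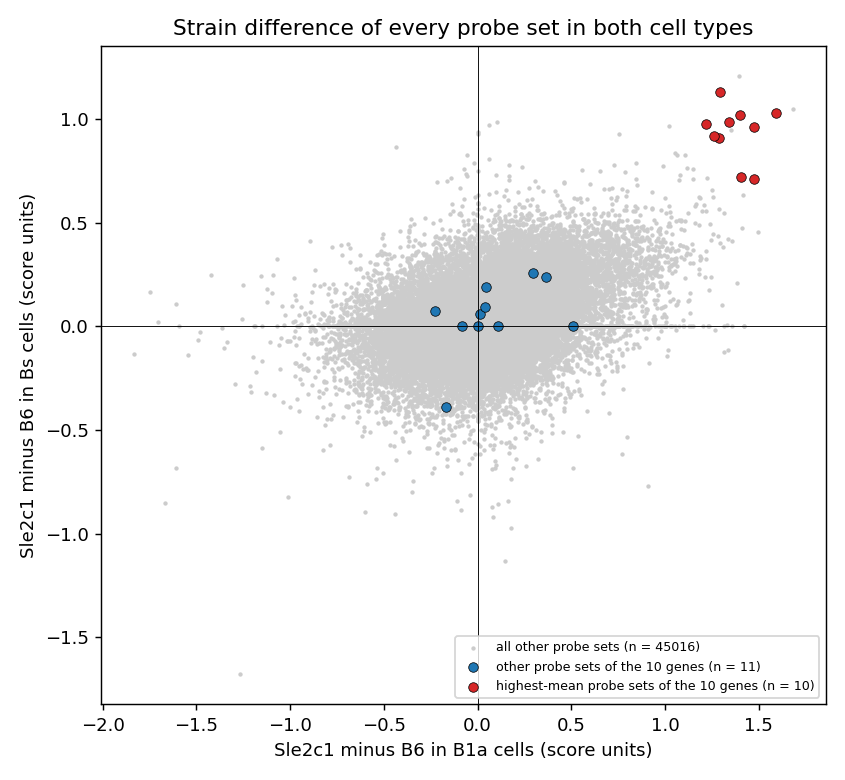
Difference of the group means, Sle2c1 minus B6, in B1a cells (horizontal axis) and Bs cells (vertical axis), in score units, for every probe set. The 10 main probe sets (red) lie at 1.22 to 1.59 and 0.71 to 1.13, and the 11 other probe sets of the same genes (blue) lie at -0.23 to 0.51 and -0.39 to 0.26, within the grey cloud of all other probe sets.

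To see how often probe sets of a gene share a pattern on these arrays, the same count was made over all named genes and over any of their probe sets. Sle2c1 lay above B6 without overlap in both cell types for 105 probe sets, 83 of them with a single gene name and each from a different gene. Of those 83 genes, 68 had several probe sets, with 151 further ones, and 0 of the 68 showed the pattern in more than 1 probe set. For the opposite pattern, Sle2c1 below B6 in both cell types, 38 probe sets (0.0844% of all) belonged to 33 genes, and 0 of the 26 with several probe sets showed it more than once. For B1a above Bs in both strains, 316 of 1117 genes with several probe sets (28.29%) had 2 or more that showed it. For B1a below Bs it was 336 of 1168 (28.77%). The cell type patterns were far more frequent, at 2204 and 2535 probe sets against 105 and 38 for the strain patterns. They also hold genes of higher signal. By frequency alone a further probe set would seldom show a strain pattern. The counts of 0 are therefore not evidence of less agreement than by chance. Among genes whose main probe set carried the pattern at a mean under 1.5 units, the share of other probe sets that carried it too was 0 of 47 for the Sle2c1 pattern, 18 of 232 (7.759%) for B1a above Bs and 8 of 165 (4.848%) for B1a below Bs. No test was made of these differences.

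**Figure D4:**
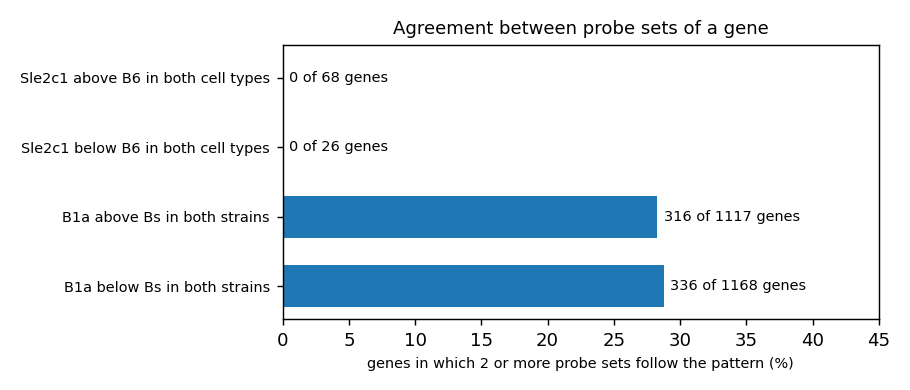
Share of genes with several probe sets in which 2 or more probe sets follow a pattern (horizontal axis, percent), for patterns shared by 2 groups without overlap. The strain patterns stand at 0 of 68 and 0 of 26 genes, the cell type patterns at 316 of 1117 and 336 of 1168. The strain patterns were held by 105 and 38 probe sets and the cell type patterns by 2204 and 2535, so the shares are not directly comparable.

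By their annotation, 3 of the 10 main probe sets had the x_at suffix, against 5.42% of all probe sets. For 0 of 10 a RefSeq mRNA was recorded as the source of the design, against 13.55%. No source was recorded for Ang 1438937_x_at and Spock1 1419673_at, nor for Ang 1438936_s_at and Spock1 1419672_at among the other probe sets. The design source of these probe sets is therefore not known. These are counts over few probe sets, and no test was made of them. Among the other probe sets of the genes 2 of 11 were built on a RefSeq mRNA, Krt13 1422454_at and Ang 1450717_at. Of the 105 probe sets with the pattern, 12.38% had the x_at suffix and 8.571% were built on a RefSeq mRNA.

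Cell types were compared next. The choice of the genes used their Sle2c1 levels in each cell type, though not the difference between these. With B6 near the floor in both cell types, this difference is close to that of the strain effects given below. Limma's values for it are therefore a description. In Sle2c1 mice 6 of 10 main probe sets were higher in B1a than in Bs cells at an adjusted p under 0.05. The difference was above 0 for all 10 (median 0.45 units). Among all 35032 probe sets tested by limma, 11.1% were higher in B1a cells at an adjusted p under 0.05, 13.7% were lower and 24.8% passed in either direction. Krt13 rose most, by 0.66 units (SE 0.11, adjusted p = 0.000502), followed by Pld1 (0.60, SE 0.096, adjusted p = 0.000394). Pxt1 was higher by 0.52 (SE 0.14, adjusted p = 0.0158), Zfp518b by 0.47 (SE 0.13, adjusted p = 0.0138), Ric3 by 0.46 (SE 0.13, adjusted p = 0.021) and Spock1 by 0.43 (SE 0.12, adjusted p = 0.0166). The differences of Ang (0.44, 95% interval 0.10 to 0.78, adjusted p = 0.0566), Pth1r (0.41, 0.07 to 0.75, adjusted p = 0.0739), Elf5 (0.30, -0.04 to 0.65, adjusted p = 0.189) and Ppp1r3g (0.22, -0.001 to 0.44, adjusted p = 0.135) did not pass. Of the 8 other probe sets that could be tested, Pld1 1425739_at passed, at 0.56 units (SE 0.17, adjusted p = 0.0287). It was at the floor on 12 arrays, among them every Bs array. Its call was lost with only the compared arrays and without the 4 arrays that stood apart. It was also lost without Sle2c1_B1a replicate 3 or 4 or without Sle2c1_Bs replicate 1, 2 or 3. It is therefore weak support for the call of the main probe set. The third Pld1 probe set, 1437113_s_at, did not pass, at -0.19 units (95% interval -0.53 to 0.16, adjusted p = 0.421). Of 18 probe sets, 7 passed with all arrays, 3 without Sle2c1_Bs replicate 3 and 3 without the 4 arrays that stood apart. With no floor 0 passed.

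In B6 mice the genes had been chosen for levels near background in both cell types, and more of the B6 values were at the floor than above it, so that nothing is read from a lack of difference there. By limma 0 of the 10 main probe sets passed. Differences ran from -0.13 to 0.17 units, with adjusted p from 0.398 to 0.996 and 0 unadjusted p under 0.05, while 19.9% of all probe sets passed, 9.21% higher and 10.7% lower in B1a cells. Over all 18 probe sets of the genes 0 passed, and 1 had an unadjusted p under 0.05, Ang 1438936_s_at, at 0.38 units (adjusted p = 0.103).

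The strain difference was larger in B1a than in Bs cells for all 10 main probe sets as measured, by a median of 0.38 units. Both strain differences chose the genes, with the B6 levels mostly at the floor, so limma's values for this interaction are given as a description and support nothing about the genes. An adjusted p under 0.05 was reached by Krt13 (0.77 units, SE 0.16, adjusted p = 0.0486) and Pld1 (0.69, SE 0.14, adjusted p = 0.0415). Both calls were lost with replicate number as a block, at adjusted p = 0.0704 for Krt13 and 0.0554 for Pld1. Of all probe sets 0.462% passed, 0.26% upward and 0.203% downward. The other 8 had differences of 0.16 to 0.56 units, and 4 of them had an unadjusted p under 0.05. Leaving out single arrays ended the Krt13 call in 13 of 16 cases and the Pld1 call in 12 of 16, and without the 4 arrays that stood apart 0 passed.

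**Figure D5:**
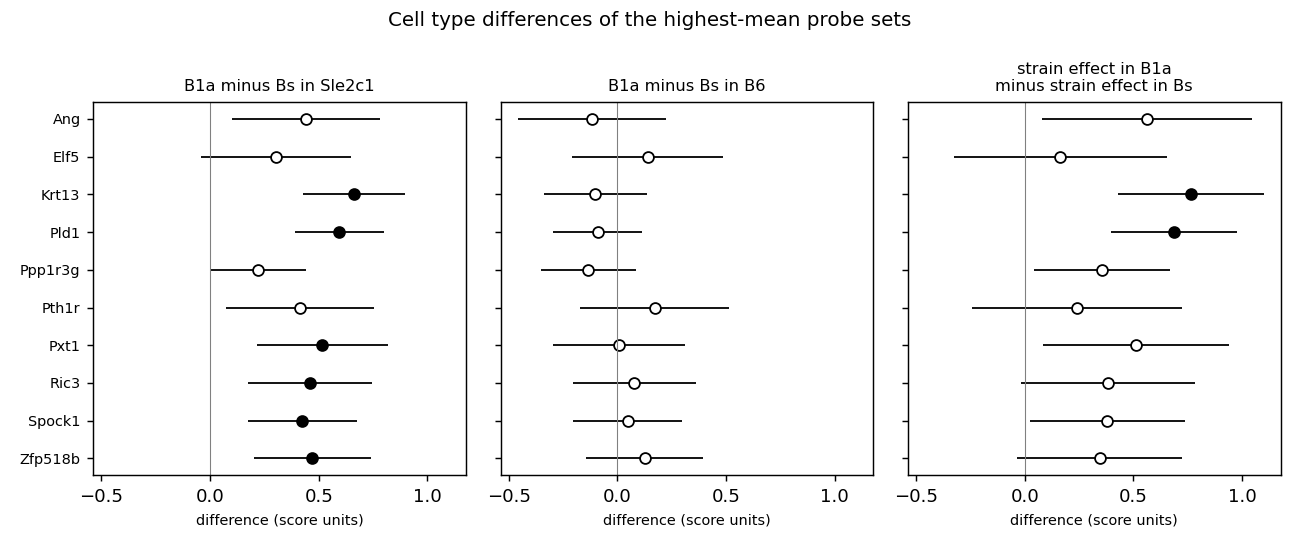
Fitted differences in score units (horizontal axis) for the main probe set of each gene, with 95% intervals as lines, for B1a minus Bs in Sle2c1, for B1a minus Bs in B6, and for the strain effect in B1a minus that in Bs. Filled points had an adjusted p under 0.05 by limma: 6 of 10 at left, 0 of 10 in the middle and 2 of 10 at right. All panels are descriptions, since levels that chose the genes enter each difference.

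Genes that work with the 10 were examined by their main probe sets. Of 98 such genes 93 were measured, and 0 of 93 lay above B6 without overlap in both cell types. Over all named genes 49 of 18193 did so, a share too small for a count of 0 to set these genes apart. In B1a cells 2 lay above B6 without overlap (Chrna3 and Ppp1r3e) and 3 below (Rala, Rac1 and Arrb1), and in Bs cells Chrnb4 lay above and Ezh2 below, with median differences of 0.00 in both, as over all named genes (0.01 and 0.00). Over all 18193 named genes, 574 lay above and 740 below in B1a cells, and 185 above and 225 below in Bs cells. The interaction was passed by 0 of 70 tested, beside 42 upward and 31 downward of 15083 named genes.

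Among the ribonuclease partners of Ang, Rnase6 had group means of 2.89 to 3.46 units and Rnh1, the inhibitor that binds angiogenin, 2.34 to 2.87, with no strain separation. Elf1 (3.14 to 3.34) and Stat5a (2.79 to 2.91), the latter an activator of mammary gene expression with Elf5, did not separate the strains either. Of 13 other keratins 0 separated the strains. Krt4, the type II keratin that pairs with Krt13, was at 0.62 ± 0.14 in B6_B1a and 0.75 ± 0.30 in Sle2c1_B1a and at the floor on all 8 Bs arrays, and Krt8, of simple epithelium, was at 1.60 ± 0.52 and 1.14 ± 0.08 in B1a cells and at the floor in Bs cells (SD, n = 4).

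Pld4, a phospholipase D family member of lymphoid and myeloid cells, had means of 2.14 to 2.45, and Arf6, an activator of Pld1, 4.00 to 4.14. The catalytic subunits Ppp1cb (3.71 to 3.92) and Ppp1cc (3.54 to 3.72), to which Ppp1r3g binds, were high in all groups. For Pth1r, the ligand gene Pth was near the floor in all 4 groups (0.50 to 0.62), and Gnas, which encodes the G protein that the receptor couples to, was at 3.06 to 3.14. Zfp518a, the relative of Zfp518b, was at 2.99 to 3.25. None of these genes separated the strains in both cell types.

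Of the nicotinic receptor subunits on which Ric3 acts, Chrna3 separated the strains in B1a cells, at 0.50 ± 0.02 in B6 and 1.73 ± 0.05 in Sle2c1 without overlap, and in Bs cells it was at 0.94 ± 0.54 and 1.30 ± 0.10 with overlap (SD, n = 4). Chrnb1 had the highest mean over the 16 arrays, with group means of 1.69 to 2.50, and Chrna4 had 1.17 to 1.62, and neither separated the strains.

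Markers of the tissues in which the 10 genes are known were examined as lists, each gene by its main probe set. Over all 18193 named genes, 574 lay above B6 without overlap in B1a cells and 185 in Bs cells. Testis markers lay above B6 without overlap for 0 of 14 genes in either cell type, with median differences of 0.05 and -0.01 units, mammary markers for 0 of 7 (0.22 and 0.12) and bone and kidney markers for 0 of 8 (0.06 and 0.00). Of 12 squamous epithelium markers, 2 did so in B1a cells and 0 in Bs cells, namely Dsc3 (0.71 ± 0.18 against 1.49 ± 0.22) and Lor (0.50 ± 0.01 against 1.30 ± 0.29; SD, n = 4). Of 11 neuron markers, Gad1 did so in Bs cells alone, at 1.57 ± 0.06 and 1.73 ± 0.10. The median differences were 0.18 and 0.00 units for the squamous list and 0.30 and 0.15 for the neuron list. As means over the list, the B1a arrays of the strains did not overlap for either, with 0.755 to 0.842 units in B6 against 0.970 to 1.12 in Sle2c1 for squamous markers and 0.541 to 0.627 against 0.667 to 0.932 for neuron markers. In Bs cells both list means overlapped, and so did those of the testis, mammary, and bone and kidney lists in both cell types. Array medians were 0.79 to 0.89 in B6_B1a and 0.87 to 1.09 in Sle2c1_B1a. Whether weak probe sets in general lay higher on the Sle2c1_B1a arrays was not tested. The part of such cells in the result was not tested either.

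Markers of macrophages went with the strain. Over all 18193 named genes, 740 lay below B6 without overlap in B1a cells, 225 in Bs cells and 20 in both. Of the 16 macrophage genes, 7 lay below B6 without overlap in Sle2c1_B1a, 5 in Sle2c1_Bs and 3, Csf1r, C1qb and Apoe, in both. Their summed level, as the mean over the list, was 1.29 to 2.19 on the B6_B1a arrays against 0.976 to 1.08 on the Sle2c1_B1a arrays, and 1.20 to 1.39 against 1.01 to 1.19 in Bs cells. Timd4 (2.25 ± 0.55 in B6_B1a) and C1qb (2.17 ± 0.68) were at the floor on all 4 Sle2c1_B1a arrays, while Cd14 was at 2.90 ± 0.43 and 2.78 ± 0.14 (SD, n = 4). The direction is opposite to that of the 10 genes, and the part of these cells in the result was not tested. B cell markers had a list mean of 2.60 to 2.71 on B6_B1a and 2.51 to 2.65 on Sle2c1_B1a arrays, and of 2.71 to 2.87 and 2.76 to 2.82 in Bs cells. Of the 8 measured, 2 lay below B6 without overlap in Sle2c1_B1a, Cd79b with means of 3.42 and 3.22 and Ms4a1 with 3.81 and 3.75, and 0 in Bs cells. T cell markers (9 measured) and markers of mesothelium and stroma (10) separated the strains for 0 genes.

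The edge of the set was not sharp. Its members had a smaller of the 2 strain differences of 0.709 (Krt13) to 1.13 units (Elf5), and 16 probe sets that were not of the set had the pattern with a smaller difference of at least 0.709, 10 of them with a single gene name. Just outside, Dnaaf6 (1430400_at) lay above B6 by 0.85 and 0.79 units and Sox11 (1436790_a_at), a transcription factor of neural progenitors, by 1.41 and 0.48, both without overlap in both cell types. Olfr480, Sall3 and Limch1 separated the strains in B1a cells only, by 1.42, 1.36 and 1.33 units, with Bs differences of 0.00 to 0.01. Ndn, Lrat and Fam71b did so in Bs cells only, by 0.94, 0.82 and 0.79.

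The 8 named genes whose main probe sets followed the mean of the 10 most closely over the 16 arrays were, of 13813 compared, Btbd11 (Pearson 0.942), Dnaaf6 (0.939), Slc8a1 (0.935), Ccdc136 (0.928), Zdbf2 (0.923), Serpinb5 (0.916), Sox11 (0.915) and Scn9a (0.914). Slc8a1, a sodium-calcium exchanger of heart and neurons, had group means of 0.50, 1.50, 0.50 and 1.12 in B6_B1a, Sle2c1_B1a, B6_Bs and Sle2c1_Bs. Serpinb5, an epithelial serpin, had 0.58, 1.32, 0.50 and 1.12, and Scn9a, a sodium channel of sensory neurons, 0.51, 1.38, 0.50 and 0.97. The main probe sets of Zdbf2 and Scn9a did not lie above B6 without overlap in both cell types. The other probe sets of these 8 genes, from 0 to 5 a gene, showed that pattern in 0 cases. The correlations run over the strain groups by which the 10 genes were chosen.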

How the data were processed

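RNA of B1a and splenic B cells was amplified, labelled with biotin (NuGEN Ovation, per the labels' protocols) and hybridised to 16 Affymetrix mouse arrays, 4 in each of 4 groups. What the authors deposited is a table with 45101 probe sets, including 64 array controls, whose unit is a score: its log base, scaling, centring and the software behind it are not given in the sources used here. Log2 values had been assumed when the tests were planned. The table held 0 columns of other samples.

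Gene names came from the platform annotation, updated by Entrez identifier through RefSeq (GRCm38.p6, 99.42% matched), with 34945 probe sets named by 1 gene, 932 by several and 9160 by none. Values under the floor of 0.495 were set to it. Tests used limma 3.58.1 in R 4.3.3 on the 35032 probe sets above the 40th percentile of their array on at least 4 arrays, with 4 group means over all 16 arrays, two-sided, Benjamini-Hochberg adjusted over all 35032, at a threshold of 0.05. The procedure was tested on simulated data. Summaries used Python 3.11.15 and pandas 2.3.3.

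Alternatives were no floor, a floor at 1, median centring, quantile normalization, no filter, 1 probe set per gene, other forms of the test, replicate number as a block, and leaving out each array or the 4 that stood apart in earlier work. Same-numbered B6_Bs and Sle2c1_Bs arrays deviated together (correlations of 0.106 to 0.596, 4 of 4 above 0.1). In each of the other pairs of groups 0 or 1 of 4 was above 0.1 (-0.245 to 0.324). Differently numbered Bs arrays could deviate together as well, with 0.394 for B6_Bs replicate 1 and Sle2c1_Bs replicate 4.

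The genes, the lists of partners and markers (textbook knowledge), the named genes just outside and the floor were chosen with earlier results of these data known. Named are all 10 genes, Cdkn2c, up to 4 genes of a list with the highest mean or smallest adjusted p, and the 8 nearest patterns. Other list genes (Rnase4, Krt4, Krt8, Pld4, Pth, Chrna3, Chrnb4, Ppp1r3e, Rala, Rac1, Arrb1, Ezh2, Csn1s2a, Dsc3, Lor, Gad1, Pax5, Cd5, Timd4, Csf1r, C1qb, Apoe, Cd14 and Olfr1507) were named after their values were seen or for their known role. The counts and means of the lists use the main probe set of each gene. Where the probes lie on each transcript was not used here.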

Additional observations from a re-analysis of the deposited data

Results flagged for a closer look

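Single arrays stood far from the other 3 of their group in 28 of 67 groups of 4 arrays that held more than 1 value, where chance alone flags about 1 in 20 groups. In 21 of the 28 the other 3 arrays were at the floor, so that any level above it is far from the rest. Among the main probe sets the flagged B6_Bs values were Pth1r at 0.68 on B6_Bs 3, Spock1 at 0.53, Elf5 at 1.18 and Pxt1 at 0.91 on B6_Bs 4, and Ric3 at 0.77 on B6_Bs 1. For Elf5 and Ric3 there, 2 of the other arrays were at the floor. The flagged B6_B1a values were Pxt1 at 0.93 on B6_B1a 4, Pld1 at 0.56 on B6_B1a 3, and Ang at 0.99, Zfp518b at 1.00 and Krt13 at 0.81 on B6_B1a 1. On the Sle2c1 side, Elf5 was at 2.08 on Sle2c1_Bs 4, above the others at 1.68 to 1.74, and Spock1 at 1.38 on Sle2c1_B1a 4, below the others at 1.96 to 2.01.

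Among the other probe sets the arrays that stood apart in B6_B1a were Spock1 1419672_at (0.66) and Pld1 1425739_at (0.68) on replicate 4, Pld1 1437113_s_at (0.61) on replicate 2, Krt13 1437344_x_at (0.83) and Ric3 1445553_at (1.11) on replicate 1, and Ang 1450717_at (0.85) and Zfp518b 1452340_at (0.59) on replicate 3. In Sle2c1_B1a they were Spock1 1419672_at (1.10) on replicate 3, Pld1 1437113_s_at (0.67) on replicate 2, and Ang 1438936_s_at (1.12), Ang 1450717_at (0.99) and Zfp518b 1452340_at (0.96) on replicate 1. In the Bs groups they were Pld1 1437113_s_at (1.18) on B6_Bs 3, Ang 1438936_s_at (0.79) and Ric3 1445553_at (0.87) on Sle2c1_Bs 3, and Zfp518b 1452340_at (0.72) on Sle2c1_Bs 1.

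The strain effect was larger in B1a than in Bs cells for Pld1 (0.69 units) and Krt13 (0.77 units), with an adjusted p under 0.05 by limma's interaction term that was lost with the replicate block. The genes were chosen on both strain differences, so this is a description.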

How the results depend on the processing

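Of 18 probe sets of the genes, 7 had an adjusted p under 0.05 by limma between B1a and Bs cells of Sle2c1 mice, a contrast given as a description. The count was 0 with no floor, 4 with median centring, 3 without the 4 arrays that stood apart, 4 with only the compared arrays, 8 with the replicate block, and 3 to 9 when single arrays were left out, the 3 without Sle2c1_Bs replicate 3. With a floor at 1 unit all 10 main probe sets passed. All 10 differences stayed above 0 under every alternative run. For the same contrast in B6 the count of 0 became 1 with no floor and was 0 to 1 when single arrays were left out (1 without B6_B1a replicate 4 or Sle2c1_B1a replicate 1). The count of 2 for the difference of the strain effects was 0 with no floor, median centring, the replicate block, trend and robust variances or without the 4 arrays, 1 with quantile normalization, no filter or 1 probe set per gene, and 0 to 2 when single arrays were left out. With no floor that difference turned to -0.15 for Elf5, -1.30 for Pld1, -4.10 for Pth1r, -1.52 for Pxt1 and -0.20 for Ric3, since the lowest value of each array, which carries no level, then enters the means. It lay between -0.0063 and 0.26 for Elf5 when single arrays were left out, and was -0.0063 without B6_Bs replicate 4. For Spock1 it passed without Sle2c1_B1a replicate 4 (0.53 units, adjusted p = 0.0199). The causes of the other changes were not tested. The median over all probe sets of B1a minus Bs in Sle2c1 was -0.185 with no floor against -0.026. The number of probe sets with Sle2c1 above B6 without overlap stayed at 10 to 12 in B1a and 10 to 11 in Bs cells under all alternatives, 11 in B1a cells without Sle2c1_B1a replicate 1 (Pld1 1425739_at joined) and 11 in Bs cells without B6_Bs replicate 3 or the 4 arrays (Ric3 1434912_at joined). The count with Sle2c1 below B6, whose alternatives were chosen after seeing the data, was 0 in both cell types and 0 to 1 when single arrays were left out. It was 1 without those same arrays, in B1a cells without Sle2c1_B1a replicate 1 and in Bs cells without B6_Bs replicate 3 or the 4 arrays, each time Zfp518b 1452340_at. With no floor, Elf5 1419556_at and Ric3 1434912_at joined in B1a cells, through array-specific lowest values (-5.68 against -5.92, and -4.99 against -5.92).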

Other observations

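The pattern of the 10 genes was also seen in single probe sets of genes that every cell uses. These were picked after their values were seen. Tpt1, which encodes an abundant protein of growing cells, had 1 probe set, 1416643_at, at the floor on all 8 B6 arrays and at 1.50 ± 0.20 in Sle2c1_B1a and 0.95 ± 0.26 in Sle2c1_Bs (SD, n = 4). Its other probe set, 1416642_a_at, was at 4.05 ± 0.03 and 4.02 ± 0.06 in B6_B1a and Sle2c1_B1a and at 4.26 ± 0.09 and 4.22 ± 0.04 in the Bs groups. Cct3, a subunit of the chaperonin that folds actin and tubulin, had 1439679_at at 0.74 ± 0.28 and 1.52 ± 0.22 in B1a cells and at 0.92 ± 0.26 and 1.37 ± 0.12 in Bs cells. Its probe set with the highest mean, 1448178_a_at, was at 3.04 ± 0.09 and 3.06 ± 0.04 and at 2.90 ± 0.06 and 2.86 ± 0.02 (SD, n = 4).

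Olfactory receptor genes, 39 of which were measured, lay above B6 without overlap for 6 genes in B1a cells, for 2 in Bs cells and for 1, Olfr1507, in both. Over all 18193 named genes 574, 185 and 49 did so. Below B6 lay 1 olfactory receptor gene in B1a cells and 0 in Bs cells, beside 740 and 225 of all named genes. No test was made of these counts. The mean over these genes was 0.503 to 0.592 units on the B6_B1a arrays and 0.799 to 0.920 on the Sle2c1_B1a arrays, and 0.524 to 0.699 against 0.637 to 0.770 in Bs cells.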
